A study of Mus musculus with 6 samples.

Results

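The genes described here encode the machinery of mitochondrial apoptosis and the p53 stress response, measured on arrays of mouse natural killer (NK) cells. They are 34 named members of the BCL2 family, the caspases with their cofactors, and p53 with its regulators and targets. A member was used when the platform annotation gave at least 1 probe set with its symbol alone, and 32 of the 34 were found among 19943 genes. The other 2, Bax and Trp53, are not analysed here. Each of the 32 was read by 1 probe set.

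NK cells, lymphocytes of the innate immune system, destroy virus-infected and tumour cells. The study hybridised RNA of 6 NK cell preparations to Affymetrix arrays, 3 of cells generated with IL-18 and 3 of unstimulated cells, and its design text calls the preparations independent. The growth protocol describes cells isolated on NK1.1 and held overnight in medium with IL-2 (300 IU) and IL-18 (25 ng/ml). It stands on every sample, and whether the unstimulated cells were cultured or given IL-2 is not stated in the sources used here. The IL-18 cells were sorted as c-kit positive and CD11b negative, the unstimulated cells as c-kit negative and CD11b positive, each from live NK1.1 positive, CD3 negative cells. Strain, age and the number of animals per preparation are likewise not stated. IL-18, IL-2, culture and gate therefore cannot be told apart in any difference below, and p-values measure the spread between these 6 arrays only.

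In mitochondrial apoptosis, anti-apoptotic BCL2 proteins hold back the pore-forming proteins BAX and BAK, and BH3-only proteins relieve that hold. Once pores open, cytochrome c assembles APAF1 and caspase-9 into the apoptosome, which activates the executioner caspases. The transcription factor p53 induces several BH3-only genes together with genes of cell cycle arrest and repair, and its inhibitor MDM2 is itself a p53 target. Lymphocytes depend on cytokines for survival, and IL-15 keeps NK cells alive in part by sustaining MCL1 and holding down BIM.

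The scale is read as log2, a base inferred from the rounding of the values and not stated with them. All values are relative to the median of each probe set over the 6 arrays. They show differences between arrays but no expression level, so a member with little change may be undetected in both groups. By this construction the middle pair of arrays lies at equal distances on either side of 0. Changes are given as IL-18 generated minus unstimulated, as log2 change ± SE with 3 arrays per group, and a gene is said to rise or fall at a limma adjusted p below 0.05.

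The members divided. In the IL-18 generated cells, most p53 target genes, both measured MDM genes, Bcl2, Bcl2l1 (BCL-XL) and Bcl2l11 (BIM) were higher, whereas Mcl1, Casp6 (caspase-6) and Casp9 (caspase-9) were lower. Of the 32 members 12 rose, or 37.5%, beside 19.7% of all genes tested. A further 5 fell, or 15.6%, beside 16.7% of all genes, a share near that background. The members were chosen with earlier results of these data known, so neither comparison is a test of enrichment. The remaining 15 did not pass. The median change was 0.01 over the members and -0.06 over all genes. With a change of at least 2-fold required as well, 5 members rose and 1 fell, beside 3.62% and 3.24% of all genes. The values of the 2 groups did not overlap for 19 members, or for 48.6% of all genes.

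**Figure D1:**
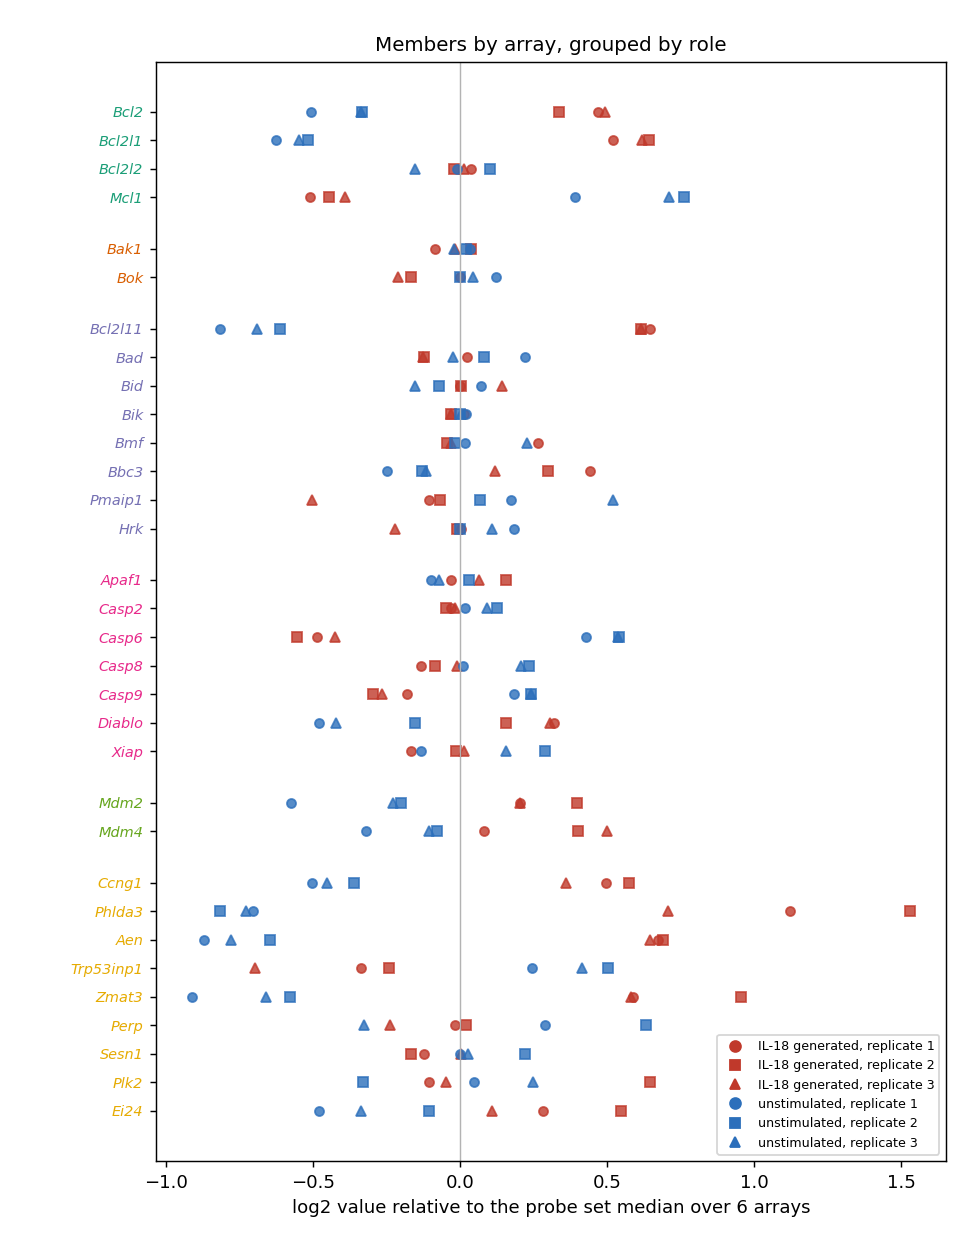
Relative log2 value of each of the 32 members (vertical axis, coloured by role) on each of the 6 arrays (horizontal axis). Red symbols are IL-18 generated and blue symbols unstimulated cells, and the symbol's shape gives the replicate number. The IL-18 arrays lie right of all unstimulated arrays for Bcl2, Bcl2l1, Bcl2l11, both MDM genes and 5 p53 targets, among others, and left of them for Mcl1 and Casp6.

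The anti-apoptotic genes moved in opposite directions. Bcl2l1, which encodes BCL-XL, stood at 0.52, 0.64 and 0.62 on the IL-18 arrays and at -0.63, -0.52 and -0.55 on the unstimulated arrays. The groups lay far apart and varied little within, and the gene rose by 1.16 ± 0.08, or 2.23-fold (limma adjusted p 1.1e-06). Bcl2 itself was at 0.47, 0.33 and 0.49 with IL-18 and at -0.51, -0.33 and -0.34 without. Its rise was smaller, 0.83 ± 0.08 or 1.77-fold (limma adjusted p 2.39e-05), again with no overlap.

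Mcl1 went the other way. It lay at -0.51, -0.45 and -0.39 on the IL-18 arrays and at 0.39, 0.76 and 0.71 on the unstimulated ones. All IL-18 arrays were below all unstimulated arrays, among which replicate 1 was lowest, and the change was -1.07 ± 0.10 (limma adjusted p 1.58e-05). Bcl2l2, which encodes BCL-W, had a change of 0.03 with a 95% interval from -0.16 to 0.22, and its groups overlapped. Set against each other within an array, the relative value of Bcl2l1 minus that of Mcl1 was 1.03, 1.09 and 1.01 with IL-18 and -1.02, -1.28 and -1.26 without. These differences between genes carry no level, and their group means were 2.23 apart on the log2 scale.

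Promoter windows of the opposed pair Bcl2l1 and Mcl1 are shown because both hold the same motif letters. The windows are RefSeq's, of 300 bases (250 before and 50 after a transcription start) on GRCm38.p6, and 27 of the 32 members matched, with 40 windows. The NF-kB pattern (GGGNN followed directly by TTTCC), read on both strands, is in capitals. It begins 218 bases before the start in Bcl2l1, in 1 of that gene's 3 windows, and 28 bases before it in Mcl1.
Bcl2l1, chr2:152830668-152830967 (minus strand): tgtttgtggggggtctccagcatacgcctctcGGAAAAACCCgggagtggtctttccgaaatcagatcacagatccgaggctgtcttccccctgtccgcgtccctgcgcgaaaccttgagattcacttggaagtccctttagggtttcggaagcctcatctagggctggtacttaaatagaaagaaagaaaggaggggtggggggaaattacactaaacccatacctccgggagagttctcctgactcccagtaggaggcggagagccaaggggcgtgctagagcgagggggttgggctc
Mcl1, chr3:95658471-95658770 (plus strand): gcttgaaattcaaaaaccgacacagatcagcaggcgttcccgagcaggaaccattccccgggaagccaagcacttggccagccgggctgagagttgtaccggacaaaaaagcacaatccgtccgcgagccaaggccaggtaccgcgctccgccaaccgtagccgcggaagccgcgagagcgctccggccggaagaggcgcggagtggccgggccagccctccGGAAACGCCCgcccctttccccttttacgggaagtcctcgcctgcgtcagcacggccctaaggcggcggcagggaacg
Of all 32851 windows, 1.63% held this pattern, and so did 3 of the 40 member windows, the last of them of Bbc3. The letters describe the sequence and do not show that a factor binds there.

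Neither measured gene of the pore-forming proteins passed the test. Bak1, which encodes BAK, had a change of -0.03 with a 95% interval from -0.19 to 0.13. Bok, which encodes a related protein less dependent on the other family members, had a change of -0.18 with an interval from -0.36 to 0.00. For Bak1 the interval leaves room for only a small difference in the probe set's values in either direction. Without levels, an unchanged transcript cannot be told from an undetected one.

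Among 8 genes of BH3-only proteins, 2 were called higher, 1 lower and 5 in neither direction. Of all genes 19.7% were called higher and 16.7% lower, and no difference from these shares was tested. Bcl2l11, which encodes BIM, was at 0.64, 0.62 and 0.61 on the IL-18 arrays and at -0.82, -0.61 and -0.69 on the unstimulated ones. The IL-18 arrays were nearly identical in it, and the gene rose by 1.33 ± 0.08, or 2.52-fold (limma adjusted p 5.74e-07). BIM promotes death and BCL-XL opposes it, and theirs were the only genes of the BCL2 family, among those measured here, to rise by more than 1 on the log2 scale. Within arrays the relative value of Bcl2l11 minus that of Bcl2l1 differed between groups by only 0.17 on the log2 scale, whereas Bcl2l11 minus Mcl1 differed by 2.40.

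Bbc3 and Pmaip1 encode PUMA and NOXA, BH3-only proteins that are both p53 targets. Bbc3 stood at 0.44, 0.30 and 0.12 with IL-18 and at -0.25, -0.13 and -0.12 without, and rose by 0.45 ± 0.09 (limma adjusted p 0.00327). Pmaip1 stood at -0.11, -0.07 and -0.50 with IL-18 and at 0.17, 0.07 and 0.52 without, a change of -0.48 ± 0.14 (limma adjusted p 0.0214). The groups of Pmaip1 did not overlap but came close, and replicate 3 of each group lay farthest out. The call ended without IL-18 replicate 3 (-0.34, limma adjusted p 0.0755) and without unstimulated replicate 3 (-0.35, limma adjusted p 0.0821), and over 14 alternatives the adjusted p ran from 0.0126 to 0.0821.

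The other 5 BH3-only genes did not pass. Bad, a sensor of growth factor signals, had a change of -0.17, and Hrk (harakiri), best known in neurons, of -0.17. Bid, whose protein is cut by caspase-8 and granzyme B, had 0.10, with a 95% interval from -0.09 to 0.29. Bmf and Bik had -0.01 and -0.02, and the groups overlapped for each of these 5 genes.

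**Figure D2:**
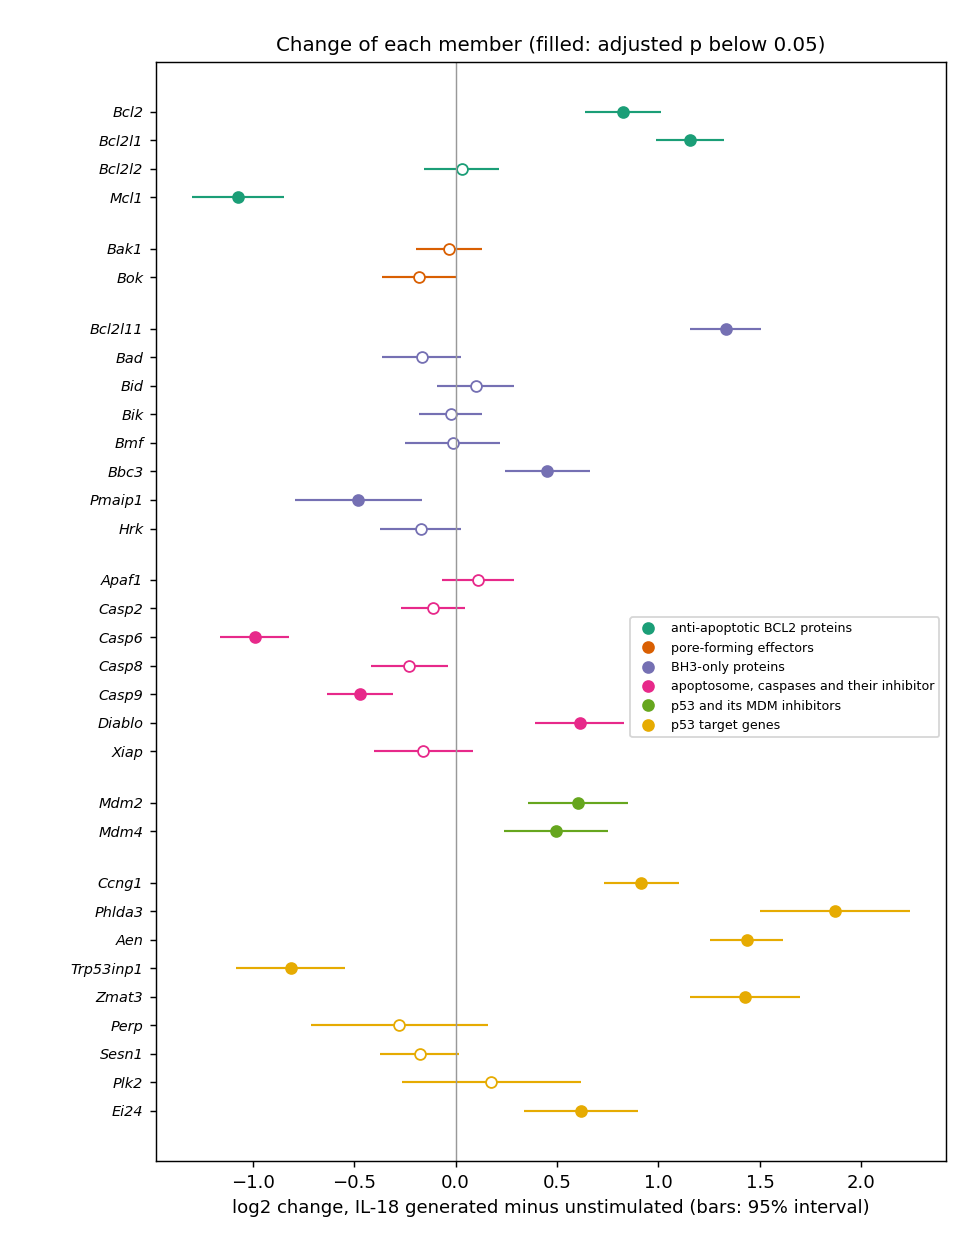
Log2 change of each member, IL-18 generated minus unstimulated (horizontal axis), with its 95% interval, coloured by role. Filled points passed at a limma adjusted p below 0.05. The p53 target Phlda3 has the largest increase, 1.87, and Mcl1 the largest decrease, -1.07, while both pore-forming genes have open points near 0.

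Of 7 genes of the apoptosome, the caspases and their regulators, 1 was higher, 2 were lower and 4 were not called. The shares among all genes were 19.7% higher and 16.7% lower. Casp6, an executioner caspase, lay at -0.49, -0.55 and -0.43 with IL-18 and at 0.43, 0.54 and 0.54 without. The arrays of a group differed little, and the change was -0.99 ± 0.08 (limma adjusted p 3.38e-06). Casp9, the initiator that the apoptosome activates, lay at -0.18, -0.30 and -0.27 with IL-18 and at 0.18, 0.24 and 0.24 without, a change of -0.47 ± 0.07 (limma adjusted p 0.000474).

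Apaf1, which encodes the scaffold on which caspase-9 is activated, changed by 0.11, short of the threshold. Casp8, the initiator caspase of death receptors, had a change of -0.23 (limma adjusted p 0.0597). Its groups did not overlap, and it passed with array weights (adjusted p 0.0472) and without unstimulated replicate 1 (-0.30, adjusted p 0.0232), over a range of 0.0232 to 0.169. The groups of Casp2 did not overlap either, yet its change was only -0.11 (limma adjusted p 0.258).

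Diablo and Xiap encode an antagonist pair, SMAC and the caspase inhibitor it displaces. Diablo was at 0.32, 0.15 and 0.30 on the IL-18 arrays and at -0.48, -0.15 and -0.42 on the unstimulated ones. It rose by 0.61 ± 0.10 (limma adjusted p 0.000625), with replicate 2 of each group nearest to 0. Xiap had a change of -0.16 with a 95% interval from -0.40 to 0.09, and its groups overlapped.

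Both measured MDM genes rose. Mdm2, the ubiquitin ligase that removes p53, was at 0.20, 0.40 and 0.20 with IL-18 and at -0.58, -0.20 and -0.23 without, a rise of 0.60 ± 0.11 (limma adjusted p 0.00138). Mdm4, its partner that masks the activation domain of p53, was at 0.08, 0.40 and 0.50 with IL-18 and at -0.32, -0.08 and -0.10 without, a rise of 0.49 ± 0.12 (limma adjusted p 0.0063). In both genes the groups were apart, and unstimulated replicate 1 was lowest.

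Among 9 p53 target genes 5 were called higher, 1 was called lower and 3 were not called, and the median change was 0.62. The shares called among all genes were 19.7% higher and 16.7% lower. Phlda3, which encodes an inhibitor of the survival kinase AKT, had the largest change of all members. It lay at 1.12, 1.53 and 0.71 on the IL-18 arrays and at -0.71, -0.82 and -0.73 on the unstimulated ones, a rise of 1.87 ± 0.17 or 3.65-fold (limma adjusted p 9.3e-06). Of all genes tested 99.4% had a lower change. Values on the IL-18 arrays scattered more, with an SD of 0.41 against 0.06 in the unstimulated group, yet the lowest of them was well above every unstimulated array.

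Aen and Zmat3 rose by nearly the same amount. Aen, a nuclease that promotes apoptosis, was at 0.67, 0.69 and 0.65 with IL-18 and at -0.87, -0.65 and -0.78 without, a rise of 1.43 ± 0.08 (limma adjusted p 4.47e-07). Zmat3, an RNA-binding zinc finger protein, was at 0.59, 0.96 and 0.58 with IL-18 and at -0.91, -0.58 and -0.66 without, a rise of 1.43 ± 0.12 (limma adjusted p 6.99e-06). Ccng1, which encodes cyclin G1, rose by 0.92 ± 0.08 (limma adjusted p 1.09e-05), and its IL-18 arrays at 0.50, 0.57 and 0.36 were all above the unstimulated ones at -0.50, -0.36 and -0.45. Ei24, an endoplasmic reticulum protein of autophagy, rose less, by 0.62 ± 0.13 (limma adjusted p 0.00277). Its arrays came closest together in IL-18 replicate 3 at 0.11 and unstimulated replicate 2 at -0.11.

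Pmaip1, a p53 target that fell, was counted above with the BH3-only genes. In the present list of p53 targets only Trp53inp1 fell. It encodes a stress protein of autophagy and lay at -0.34, -0.24 and -0.70 with IL-18 and at 0.24, 0.50 and 0.41 without, a change of -0.81 ± 0.12 (limma adjusted p 0.000357). The 3 targets that did not pass were Sesn1, Perp and Plk2. Sesn1, which encodes a sestrin that restrains mTORC1, had a change of -0.18. Perp, a membrane protein of cell junctions, was spread over the unstimulated arrays at 0.29, 0.63 and -0.33, and passed only without unstimulated replicate 3 (-0.54, limma adjusted p 0.00871, range over 14 alternatives 0.00871 to 0.781). Plk2, a polo-like kinase, was high on 1 IL-18 array alone, at 0.65 in replicate 2 beside -0.11 and -0.05. The 95% intervals of Perp and Plk2, from -0.71 to 0.16 and from -0.26 to 0.62, were too wide to exclude a moderate change, while those of the other 13 members that did not pass lay within 0.5 of 0.

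The promoter windows of 4 members that rose are shown with a p53 half-site in capitals, the 10-letter consensus of which p53 binds a pair. The consensus reads the same on both strands. The half-site begins 185 bases before the start in Ccng1, 186 before it in Mdm2, 10 before it in Ei24 and 10 after it in Aen.
Ccng1, chr11:40755237-40755536 (minus strand): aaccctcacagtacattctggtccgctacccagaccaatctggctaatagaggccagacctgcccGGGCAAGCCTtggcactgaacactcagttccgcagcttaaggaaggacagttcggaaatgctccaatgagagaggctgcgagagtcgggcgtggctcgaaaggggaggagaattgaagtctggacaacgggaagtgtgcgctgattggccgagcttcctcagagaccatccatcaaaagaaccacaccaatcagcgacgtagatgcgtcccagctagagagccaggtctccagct
Mdm2, chr10:117710709-117711008 (minus strand): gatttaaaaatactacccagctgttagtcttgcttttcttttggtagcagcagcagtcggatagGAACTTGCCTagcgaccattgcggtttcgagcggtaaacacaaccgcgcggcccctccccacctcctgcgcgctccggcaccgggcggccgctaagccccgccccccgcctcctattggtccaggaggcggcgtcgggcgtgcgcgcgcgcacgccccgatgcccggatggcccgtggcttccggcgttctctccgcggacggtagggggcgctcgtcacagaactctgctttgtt
Ei24, chr9:36797285-36797584 (minus strand): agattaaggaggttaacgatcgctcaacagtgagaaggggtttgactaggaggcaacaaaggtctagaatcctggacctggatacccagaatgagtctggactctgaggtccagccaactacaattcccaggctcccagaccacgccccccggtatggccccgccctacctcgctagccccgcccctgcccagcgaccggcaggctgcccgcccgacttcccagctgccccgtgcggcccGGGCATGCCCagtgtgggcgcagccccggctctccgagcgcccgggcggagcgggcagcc
Aen, chr7:78895677-78895976 (plus strand): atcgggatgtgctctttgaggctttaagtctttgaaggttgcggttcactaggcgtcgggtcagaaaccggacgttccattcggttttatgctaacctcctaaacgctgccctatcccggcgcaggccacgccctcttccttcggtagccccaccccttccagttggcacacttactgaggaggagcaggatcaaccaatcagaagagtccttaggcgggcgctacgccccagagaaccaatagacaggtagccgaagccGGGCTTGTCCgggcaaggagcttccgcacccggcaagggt
A half-site was in 7 of the 40 member windows, or 17.5%, and in 8.36% of all windows. Those 7 belong to 6 members, among them Bmf and Sesn1, which did not pass. Aen's windows overlap, and the same half-site was counted in both. Known p53 targets are among the members, so these shares are no test of enrichment. Zmat3, Trp53inp1, Perp, Pmaip1 and Bik had no matching window and were not searched. The window of Phlda3, the member with the largest rise, held none. No member window held a pair of half-sites at most 13 bases apart, which 0.07% of all windows did. Only exact matches to the consensus were counted, and sequence outside the windows was not searched. The letters describe the sequence and do not show that p53 or another factor binds there. In Ccng1 the letters directly before the marked half-site, agacctgccc, differ from the consensus in 1 letter and were not counted. The FOXO letters GTAAACA, searched on both strands, were in 1 window each of Bcl2l11, Bbc3, Mdm2 and Sesn1, or 10.0% of member windows, and in 3.65% of all windows. The E-box CACGTG was in 5.0% of member windows and 7.15% of all, and the ATF4 composite letters TGATGCAA, searched on both strands, in 0 of the 40 and 0.89% of all.

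Further genes of these pathways came from a list of 72, of which 64 were measured. Of these 23 rose, 13 fell and 28 did not pass, or 35.9% and 20.3% beside 19.7% and 16.7% of all genes. This list too was chosen with earlier results known, so the comparison is no test of enrichment. The counts by role below stand beside the same shares of all genes. The largest rise was that of Sesn2, a sestrin and p53 target also induced by ATF4 in amino acid stress. It lay at 1.50, 1.19 and 1.32 with IL-18 and at -1.23, -1.22 and -1.19 without, a rise of 2.55 ± 0.09 (limma adjusted p 2.88e-08). Its paralog Sesn1 had the change of -0.18 given above.

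Of 21 other p53 targets 10 rose, 4 fell and 7 did not pass. After Sesn2 the largest rises were Tnfrsf23, a TRAIL decoy receptor, by 0.82, and Gtse1, a microtubule protein that restrains p53, by 0.74. The 4 that fell were Btg2, an antiproliferative gene, with -0.79, Dram1, a lysosomal protein of autophagy, with -0.78, Trp53i11 with -0.47 and Rprm (reprimo) with -0.38. As among the members, the direction differed between targets.

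Of 6 measured genes of the death receptor pathway, 2 receptors rose, 1 receptor fell and 3 genes downstream did not pass. Tnfrsf10b, the mouse receptor for TRAIL and a p53 target, lay at 1.09, 1.32 and 1.21 with IL-18 and at -1.10, -1.42 and -1.09 without, a rise of 2.41 ± 0.11 (limma adjusted p 9.2e-08). Fas rose by 1.13 ± 0.09 and Tnfrsf1a, a TNF receptor, changed by -1.07 ± 0.08. The adaptors Fadd and Tradd and the caspase-8 inhibitor Cflar had changes of -0.05, -0.12 and -0.04.

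Mitochondrial factors rose in 4 of 6 cases and fell in 0. Cycs, which encodes cytochrome c, rose by 0.67, the protease gene Htra2 by 0.65, Aifm1 by 0.48 and Endog by 0.33 (limma adjusted p 0.0279). Endog lost its call with array weights (adjusted p 0.0635) and when any 1 of 4 arrays was left out, namely replicates 1 and 3 with IL-18 (0.111, 0.0833) and replicates 1 and 2 without (0.0765, 0.0584). Dffa and Dffb, which encode the inhibitor and the nuclease of DNA fragmentation, had 0.10 and -0.09.

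Other caspases and inhibitors of apoptosis split evenly, with 3 higher, 3 lower and 4 not passing. The inflammatory caspase genes Casp4 and Casp1 rose by 1.08 and 0.50, and Birc3, an inhibitor induced by NF-kB, by 0.83. Naip5 and Naip2, sensors of bacterial proteins, changed by -1.37 and -0.91. They are paralogs and may share probes, which makes their separate values uncertain. Birc5 (survivin), a mitotic gene, changed by -0.38 and lost its call without IL-18 replicate 1 or 3 or unstimulated replicate 1 (adjusted p 0.0682, 0.0857 and 0.0913).

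In the wider BCL2 family 2 genes rose, 3 fell and 5 did not pass. Bnip1 rose by 0.69 and Bcl2a1c by 0.39, the latter one of near-identical gene copies and uncertain for that reason. Bcl2l14, Bnip3l and Bcl2l10 changed by -0.45, -0.41 and -0.32, and Bcl2l10 lost its call when replicate 2 (limma adjusted p 0.0774) or 3 (0.0872) with IL-18, or replicate 1 (0.0840) or 3 (0.0649) of the unstimulated cells, was left out. Of 11 p53 cofactors and kinases 2 rose, 2 fell and 7 did not pass. The checkpoint kinase genes Chek1 and Atr rose by 1.65 and 0.78, while Ep300, a coactivator of p53, and Pml changed by -0.47 each.

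**Figure D3:**
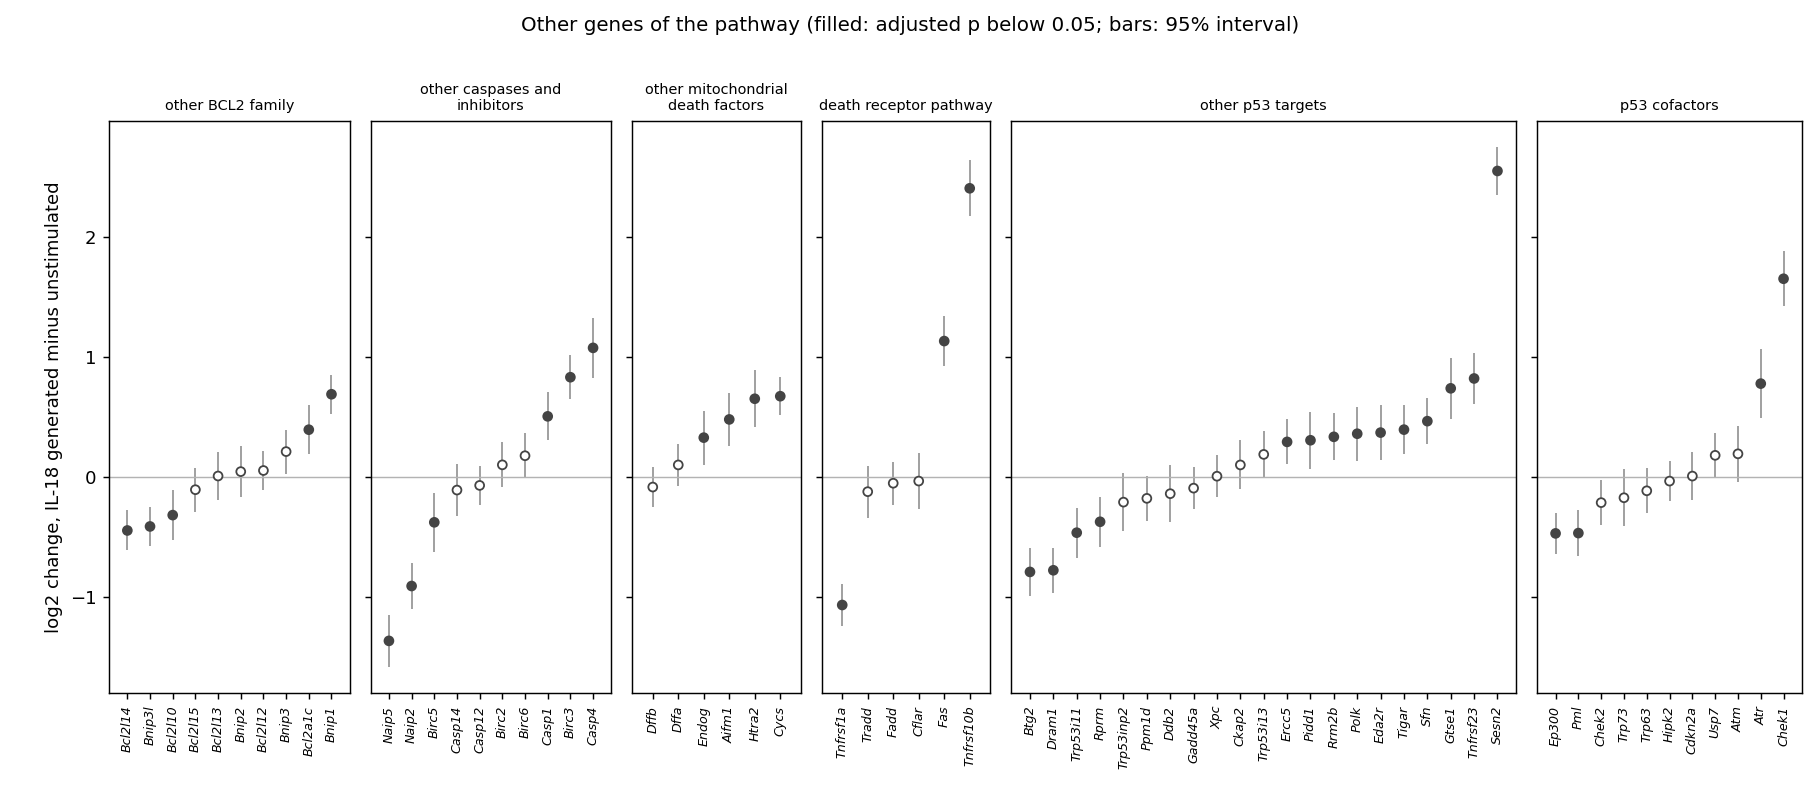
Log2 change with its 95% interval (vertical axis) of 64 other genes of these pathways, in 6 panels by role. Filled points passed at a limma adjusted p below 0.05. Sesn2 at 2.55 and Tnfrsf10b at 2.41 lie highest and Naip5 at -1.37 lowest.

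Markers of other cell types moved between the same arrays. All 10 measured monocyte and macrophage markers fell, with a mean relative value from -1.75 to -1.64 on IL-18 arrays and from 1.56 to 2.02 on unstimulated arrays. They include Itgam (-5.32), the gene of CD11b, on which the groups were sorted apart, so its fall is not independent of the gate. All 10 neutrophil markers fell (-1.20 to -0.96 against 1.05 to 2.34), as did all 6 of basophils and mast cells (-2.28 to -0.47 against 0.47 to 2.07) and all 7 of B and plasma cells (-0.76 to -0.37 against 0.30 to 0.99). Of 6 dendritic cell markers 5 fell and 1 rose (-0.36 to -0.25 against 0.21 to 0.60). In basophil markers IL-18 replicate 2, at -0.47, and unstimulated replicate 3, at 0.47, each lay nearest to the other group. Centring on the median places such a middle pair at equal distances from 0. The neutrophil markers were highest in unstimulated replicate 2.

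All 9 NK markers fell as well (-0.91 to -0.71 against 0.66 to 0.90). Of 8 T cell markers the 4 that rose were Trat1 and the 3 CD3 chain genes, and the list stood at 0.20 to 0.51 against -0.33 to -0.11. Both groups had been sorted as NK1.1 positive and CD3 negative, and Klrb1c, the NK1.1 gene, was among the falls (-2.03). The 1 measured erythroid marker did not pass. Because the values hold no level, the labelled cell type could not be checked by presence of its markers. The part that these markers have in the falls of Mcl1, Casp6, Casp9, Trp53inp1, Pmaip1, Naip5 and Tnfrsf1a was not tested, and neither was their part in the rises. In bulk RNA, fewer cells of a type and less RNA per cell cannot be told apart.

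**Figure D4:**
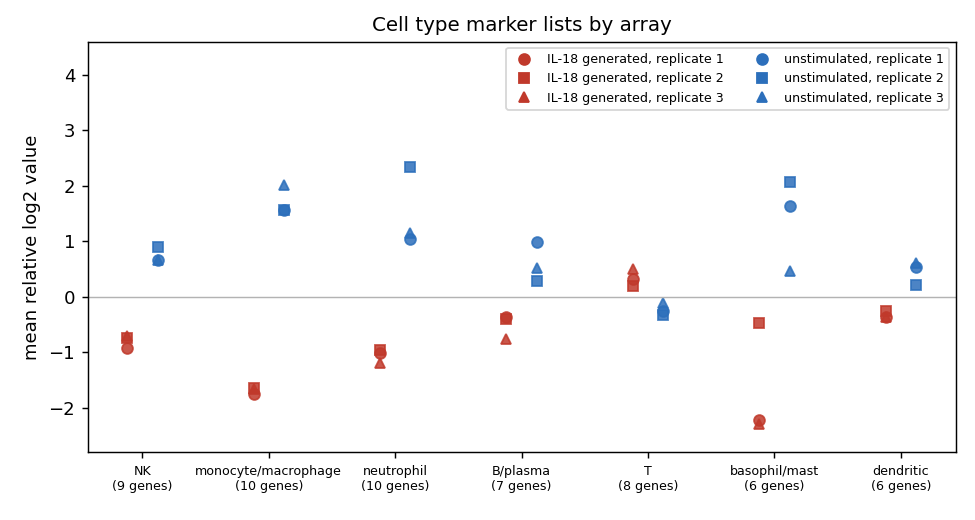
Mean relative log2 value of each cell type marker list (vertical axis) on each array, with the number of measured genes under each list. Red symbols are IL-18 generated and blue symbols unstimulated cells, and shapes give replicates. The erythroid list, with 1 measured gene whose groups overlapped, is not plotted. Of the lists plotted, those other than T cells are lower on every IL-18 array than on any unstimulated array. The monocyte list includes Itgam, the gene of CD11b, on which the groups were sorted apart. In basophil and mast cell markers, IL-18 replicate 2 and unstimulated replicate 3 each lie nearest to the other group.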

How the data were processed

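Per the labels, total RNA of 6 NK cell preparations was biotin labelled (WT Terminal Labeling Kit) and hybridised to Affymetrix arrays. The deposited table holds the authors' values for 28815 probe sets, read here as log2. Neither the labels nor the file header name the summarization, the normalization or the log base. The base was read from the rounding of the values. On the spacing that 32-bit numbers from 8 to 16 have lay 31.8% of probe sets, within 0.15 of a step. By chance 3.1% would, if every difference between arrays were free to fall on or off it. The spacing also held 44 of 239 probe sets whose range exceeds what natural logarithms allow there. No chance rate was computed for these 239, and 3.1% need not apply to them. Row medians were within 5e-07 of 0, so dim probe sets could not be filtered.

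Of the probe sets, 21788 had 1 symbol, 1597 several and 5430 none listed. Genes were means of single-symbol probe sets and were compared with limma 3.58.1 (R 4.3.3, lmFit and eBayes, no covariate), two-sided, with Benjamini-Hochberg adjustment over 19943 genes. Array medians lay between -0.02 and 0.04, and no normalization was added. The number of arrays limits the precision. The procedure was tested on simulated data. All measured members were described, and of the other pathway genes up to 3 rises and 3 falls per sublist were named, or all where 5 or fewer passed. Cflar, Fadd, Tradd, Dffa and Dffb were added after their values were seen. The members and lists were chosen with earlier results of these data known. Motifs were searched with Python 3.11.15.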

Additional observations from a re-analysis of the deposited data

Results flagged for a closer look

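Probe sets whose annotation lists several genes were left out of the gene comparison, and 4 of the 1597 list a gene of the pathways above. A fit over all 28815 probe sets gave 2 of them a limma adjusted p below 0.05. The probe set listed for both Cdkn1a, the p21 cell cycle inhibitor and a p53 target, and 4930567H12Rik cannot be assigned to either gene. It was at 1.66, 1.85 and 1.60 on the IL-18 arrays and at -1.82, -1.88 and -1.60 on the unstimulated arrays, a change of 3.47 ± 0.10 (limma adjusted p 2.15e-07) and more than that of any member. Of 3 probe sets listed for all of Bcl2a1a to Bcl2a1d, anti-apoptotic gene copies, 1 was higher by 0.29 ± 0.09 (limma adjusted p 0.0392). The other 2 had changes of 0.26 and 0.23 (limma adjusted p 0.0871 and 0.121), and their groups overlapped.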

How the results depend on the processing

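Of 17 members called, 16 kept their direction and their call in 14 alternatives without a fold threshold: limma's trend and robust options, quantile normalization, array centring, array weights, probe sets as features, genes with 1 probe set, the replicate number as a block, and each array left out. The exception was Pmaip1. Each member has 1 probe set, so probe sets as features and genes with 1 probe set left the members' values unchanged. Those settings could move a member's call only through the other genes in the fit. Of 15 members not called, 13 stayed so, the exceptions being Casp8 and Perp. Counts of members, listed pathway genes and all genes stayed within 1.5 times, and 12 members rose in each of the 14. A minimum size reduced them. With at least 2-fold required, 5 members rose and 1 fell, 5 listed genes rose and 2 fell, and 721 of all genes rose and 647 fell. When limma's treat had to exceed a log2 size of 0.5, the counts were 7 and 2 for members, 7 and 5 for listed genes, and 1093 and 864 for all genes. Same-numbered arrays did not deviate together (correlations over genes of 0.238, 0.007 and -0.020), so the numbers were not taken as pairs. With the replicate block 12 members rose and 5 fell, and 3949 of all genes rose and 3330 fell. Filters on dim probe sets were not run, since the values are centred.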
